A study of Mus musculus with 2 samples.

Results

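Histone genes were examined in mouse leukaemic cells, from a B-cell acute lymphoblastic leukaemia (B-ALL), that had been sorted by the signal of SoNar, a fluorescent sensor of the cytosolic NADH to NAD+ ratio. The members were all genes whose official or former mouse symbol begins with Hist1h, Hist2h, Hist3h or Hist4h, together with the variant genes H2afx, H2afz, H2afy, H3f3a, H3f3b and H1f0. The annotation holds 76 such genes, of which 53 had a probe on the array, 47 of them replication-coupled genes and 6 named variants, out of 20659 genes named on it. SoNar-high cells and SoNar-low cells came from the bone marrow of C57BL mice of 8 weeks, and both groups are leukaemic, so no normal B cells were compared. Each group had 1 Agilent 1-colour (Cy3) array of total RNA. The sample titles carry N-myc-high and N-myc-low in place of the SoNar names and the labels do not explain this. The sources used here give neither the way the leukaemia was induced nor the number of mice. In a bulk sample, fewer cells of a type and less RNA per cell cannot be told apart.

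Histones package DNA. The core histones H2A, H2B, H3 and H4 form the nucleosome, and the linker histone H1 binds where DNA enters and leaves it. Replication-coupled histone genes lie in clusters, have no introns, are transcribed in S phase and give mRNAs that end in a stem-loop in place of a poly(A) tail. Variant genes stand alone, are transcribed through the cell cycle and give polyadenylated mRNAs, and H2afx can give both kinds of mRNA. The kit named in the labels, Quick Amp, primes cDNA from poly(A) tails, so replication-coupled mRNAs without a tail are a poor template for it. Which form of an mRNA each probe read was not tested.

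Among the 43020 spots that are not controls, 72.9% passed the scanner software's background test with SoNar-high RNA, against 44.8% with SoNar-low RNA, and 0 were saturated. A single array per group gives no replicate check and allows no test, and it limits how precise any value is. Scanning took place in separate sessions, so scan and group cannot be told apart. Differences are log2 levels in SoNar-high minus SoNar-low cells, where a level is the processed signal relative to the 75th percentile of its array. The error after ± is the one the scanner software gives to the spots, carried to the log2 difference. It is technical and leaves out the spread between mice and between probes. For 193 repeatedly spotted probes detected on both arrays, the log2 difference had an SD of 0.15 between spots (median), and over 2021 genes with exactly 2 measured probes the probes lay a median of 0.43 apart. B lineage markers were present on both arrays, with 9 of 10 detected in each group, among them Cd79a, Cd79b and Pax5. Rag1 was well above background on neither array. Of the 9 measured markers, 1 (Cd22, 1.16) was at least 2-fold higher in SoNar-high cells, where 4.87% of all measured genes were. Ebf1 (-0.92) was the lowest of the 9, and their median was -0.26.

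Most histone genes differed by less than 2-fold between SoNar-high and SoNar-low cells. Of 40 histone genes measured on both arrays, 3 were at least 2-fold higher in SoNar-high cells (Hist1h3c, Hist1h4h and Hist1h2an), where 4.87% of all 10517 measured genes were, and 2 were at least 2-fold lower (Hist3h2a and Hist3h2ba), where 1.68% of all genes were. Counts this small, set against these shares, are no result about the histone genes as a set. The split between higher and lower members depended on the scaling. It was 3 and 2 as reported. With median scaling it was 1 and 18, where 1.32% of all genes were higher and 31.4% lower. With the percentile over jointly detected spots it was 4 and 1, where 7.66% of all genes were higher and 0.637% lower. Quantile normalization gave 2 and 5, with 3.66% of all genes higher and 3.33% lower. Cyclic loess gave 3 and 4, with 4.41% of all genes higher and 2.85% lower. The authors' value table gave 3 and 5, with 3.4% of all genes higher and 4.09% lower. Among these settings, the count of lower members rose or stayed level as the share of all genes that were lower rose. With no filter on dim probes, 4 members and 8.49% of all genes were lower. Median scaling moved the median of all genes by -0.61, and the percentile over detected spots moved it by 0.21. The median signal of the SoNar-low array, 36.6, lay under its lowest detected signal, 46.4, so median scaling rests on undetected signal there.

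The 35 measured replication-coupled genes had a median log2 difference of -0.26, with their middle 50% between -0.58 and 0.07. The 5 measured variants had a median of -0.07 and a range from -0.42 to 0.21. The median of all genes was -0.17, with their middle 50% between -0.47 and 0.20. Relative to that median the replication-coupled genes lay at -0.09 and the variants at 0.09. The replication-coupled median lay 0.19 below that of the variants, and it lay below it by 0.03 to 0.45 in the 12 alternatives. Among these, median scaling and the percentile over detected spots shift all genes alike and could not change that distance. With the scaling as reported and outlier spots left out, all 5 variants lay within 0.5 of 0. This held for 51.4% of the replication-coupled genes and 63.9% of all genes, and the replication-coupled values ran from -1.57 to 1.94.

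**Figure D1:**
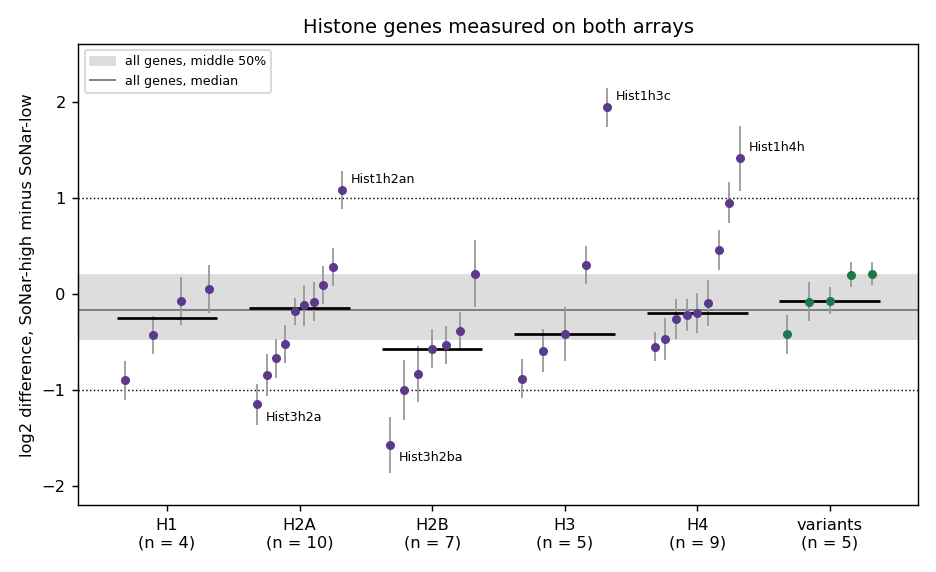
Log2 differences (SoNar-high minus SoNar-low, y axis) of the 40 histone genes measured on both arrays, outlier spots left out, by class along the x axis. Points are genes, bars through points are the scanner error, black lines are class medians, the grey band and line are the middle 50% and the median of all genes, and dotted lines mark a 2-fold difference. Hist1h3c at 1.94 and Hist3h2ba at -1.57 are the extremes, and the 5 variants lie between -0.42 and 0.21.

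The 5 members past 2-fold came from 4 histone classes. Their promoters are shown to let the letters of known histone promoter elements be compared with the direction of each gene. The sequences are those of RefSeq on GRCm38.p6, a build other than that of the array annotation (mm9), and run 5′ to 3′ up to the base before the annotated start. They are up to 250 bases long and are cut short where another annotated gene begins, so that 115 bases are given for Hist1h4h and 172 for Hist3h2a. Capitals mark 4 strings on either strand. CCAAT is the box bound by NF-Y. TATAA is the TATA box. The octamer ATTTGCAT is bound by POU factors. The string GGTCCG is the core of the H4 gene element. Hist1h3c, Hist1h4h and Hist1h2an were higher in SoNar-high cells, and Hist3h2a and Hist3h2ba were lower.
Hist1h3c, chr13:23745522-23745771, minus strand: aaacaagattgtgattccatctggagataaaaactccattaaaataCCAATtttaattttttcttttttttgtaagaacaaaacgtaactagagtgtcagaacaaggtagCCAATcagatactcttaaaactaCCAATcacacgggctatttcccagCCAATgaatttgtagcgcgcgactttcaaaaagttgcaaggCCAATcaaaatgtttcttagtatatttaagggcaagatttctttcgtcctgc
Hist1h4h, chr13:23530929-23531043, plus strand: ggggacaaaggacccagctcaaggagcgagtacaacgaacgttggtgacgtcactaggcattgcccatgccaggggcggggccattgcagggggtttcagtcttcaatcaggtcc
Hist1h2an, chr13:21787249-21787498, minus strand: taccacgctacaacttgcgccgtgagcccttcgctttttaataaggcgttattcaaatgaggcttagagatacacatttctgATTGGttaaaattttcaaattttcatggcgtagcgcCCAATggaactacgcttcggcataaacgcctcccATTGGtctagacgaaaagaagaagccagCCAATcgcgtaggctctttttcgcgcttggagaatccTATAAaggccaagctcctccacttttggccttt
Hist3h2a, chr11:58954513-58954684, plus strand: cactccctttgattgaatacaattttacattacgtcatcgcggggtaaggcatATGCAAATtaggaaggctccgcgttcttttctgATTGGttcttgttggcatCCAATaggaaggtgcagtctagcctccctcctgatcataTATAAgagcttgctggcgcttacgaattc
Hist3h2ba, chr11:58948661-58948910, plus strand: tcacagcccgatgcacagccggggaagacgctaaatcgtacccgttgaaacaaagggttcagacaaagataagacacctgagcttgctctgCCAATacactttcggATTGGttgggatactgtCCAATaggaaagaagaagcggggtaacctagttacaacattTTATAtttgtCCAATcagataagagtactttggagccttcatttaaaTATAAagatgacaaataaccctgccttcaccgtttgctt
Hist3h2a held the octamer, read on the other strand as ATGCAAAT, 119 bases before its start, and TATAA 29 bases before it. Hist1h2an held TATAA 33 bases before its start and CCAAT at 4 places on either strand, and Hist1h3c held CCAAT at 5 places and no TATAA. None of these letters stood in the part shown for Hist1h4h. That part ends in ggtcc, so a GGTCCG running past the annotated start would not have been counted. A match is a string of letters and was not tested for binding.

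Linker histones come first by role. Hist1h1e (current symbol H1f4), among the main somatic H1 genes, had a processed signal of 2526 in SoNar-high cells, against 3079 in SoNar-low cells, and a log2 difference of -0.43 ± 0.20. Hist1h1c (H1f2), another somatic H1 gene, had a signal of 590 in SoNar-high and 995 in SoNar-low cells, a difference of -0.90 ± 0.20. Of the 4 measured H1 genes Hist1h1c was thus the lowest in SoNar-high cells, short of the 2-fold line. Hist1h1a (H1f1) had a signal of 131 in SoNar-high and 114 in SoNar-low cells, a difference of 0.05 ± 0.25, and Hist1h1b (H1f5) one of -0.07 ± 0.25. The H1 median was -0.25. The testis gene Hist1h1t (H1f6) was detected with SoNar-high RNA alone, with a signal of 37.0 in SoNar-high and 9.35 in SoNar-low cells. That level lies under the lowest level detected on the SoNar-low array, so no fold can be given for it. The same holds for Hist1h1d (H1f3), with signals of 24.0 in SoNar-high and 11.3 in SoNar-low cells. H1f0, the linker variant of cells that have left the cycle, was not well above background on either array.

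H2A and H2B form the dimers of the nucleosome, and their genes lie side by side in the clusters. Among the 10 measured replication-coupled H2A genes the median was -0.15. Hist1h2an (H2ac22) had a signal of 33702 in SoNar-high cells, against 14400 in SoNar-low cells, a difference of 1.08 ± 0.20 or 2.12-fold after scaling. It was at least 2-fold higher in 11 of 12 alternatives, and 0.47 with median scaling was the exception. The filter, probe choice and outlier settings among them left it at 1.08. They can drop a gene with 1 probe but cannot change its value. Of genes with a mean signal of 10000 or more, 0.867% were at least 2-fold higher. Other H2A genes in that range differed less. Hist1h2ah (H2ac12) had signals of 40765 in SoNar-high and 30396 in SoNar-low cells, a difference of 0.28 ± 0.20. Hist1h2ag (H2ac11) had signals of 38100 in SoNar-high and 32378 in SoNar-low cells, a difference of 0.09 ± 0.20. Hist1h2af (H2ac10) had signals of 29405 in SoNar-high and 38185 in SoNar-low cells, a difference of -0.52 ± 0.20. Hist2h2ac (H2ac20) had 24749 in SoNar-high and 35679 in SoNar-low cells, a difference of -0.67 ± 0.20. The bright H2A genes thus lay on both sides of 0, although their products are nearly identical. Hist1h2ab (H2ac4), a dimmer member, was at -0.84 ± 0.22 with signals of 156 in SoNar-high and 253 in SoNar-low cells. Hist2h2aa1 (-0.12 ± 0.21) and Hist2h2aa2 (-0.08 ± 0.20) differed by less than the scanner error, and Hist1h2ak, with 2 probes, was at -0.18 ± 0.14. Replication-coupled genes of a class share most of their coding sequence, so a probe may read several copies and a value assigned to 1 copy is uncertain.

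Hist3h2a (H2aw) and Hist3h2ba (H2bu2) are the members of the Hist3 cluster on chromosome 11 that had a probe, and both were lower in SoNar-high cells. Hist3h2a had a signal of 262 in SoNar-high and 526 in SoNar-low cells, a difference of -1.15 ± 0.21. Hist3h2ba had a signal of 42.3 in SoNar-high and 113 in SoNar-low cells, a difference of -1.57 ± 0.29. SoNar-low signals were thus 2.22-fold and 2.96-fold higher after scaling. Hist3h2a stayed at least 2-fold lower in 11 of 12 alternatives, with -0.94 under the percentile over detected spots. Hist3h2ba did so in 10 of 11, with -0.92 under normexp with quantile normalization, and had no value under 1 common detection limit. Dim genes are called lower more often, with 6.6% of genes of mean signal under 100, the range of Hist3h2ba, at least 2-fold lower and 1.0% of genes of 100 to 1000, the range of Hist3h2a. Each value rests on 1 probe, so the filter, probe choice and outlier settings could not change it where they kept the gene.

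H2B had the lowest class median, -0.57 over 7 genes, and 1 of the 7 lay above 0, as did 36.8% of all genes. Hist2h2bb (H2bc18) stood just short of a 2-fold difference, at -0.997 ± 0.31, with signals of 45.3 in SoNar-high and 81.7 in SoNar-low cells. It passed 2-fold with median scaling (-1.61), quantile normalization (-1.56), cyclic loess (-1.63) and in the authors' value table (-1.84). In the other alternatives that gave it a value it stayed short of 2-fold. The brighter H2B genes differed less. Hist1h2bm (H2bc14) had signals of 1052 in SoNar-high and 1416 in SoNar-low cells, a difference of -0.57 ± 0.20. Hist1h2bc (H2bc4) had 882 in SoNar-high and 1044 in SoNar-low cells, a difference of -0.39 ± 0.20. Hist1h2ba (H2bc1), a form best known from testis, had 978 in SoNar-high and 1281 in SoNar-low cells, a difference of -0.53 ± 0.20. These 3 lay close together, within about the scanner error of each other. Hist1h2bg (H2bc8) was at -0.83 ± 0.29, with signals of 52.4 in SoNar-high and 84.4 in SoNar-low cells. Hist1h2bb (H2bc3) was the H2B gene above 0, at 0.21 ± 0.35.

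**Figure D2:**
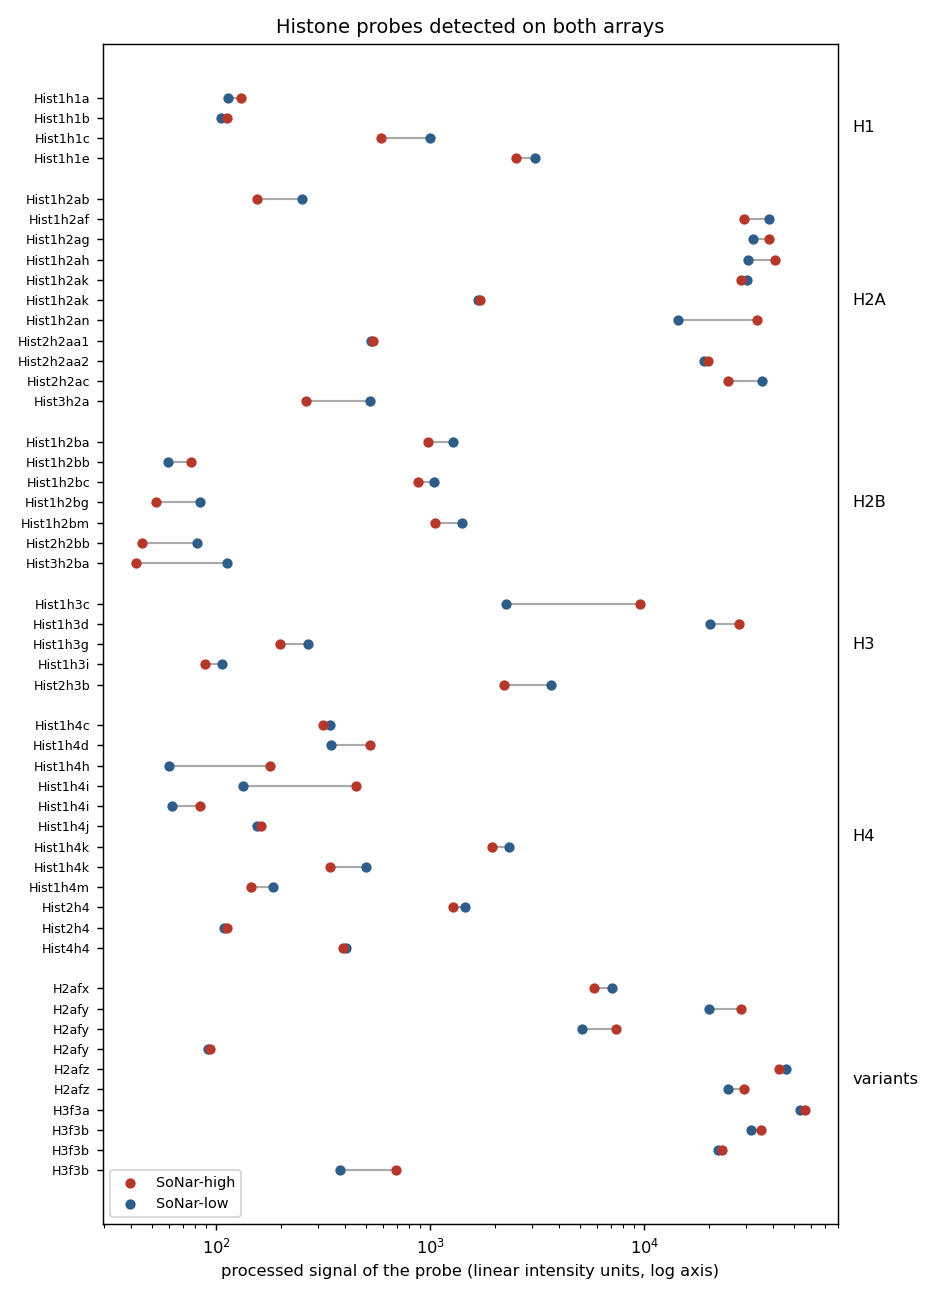
Processed signal (linear units on a log axis, x axis) of every histone probe detected on both arrays and not marked as an outlier spot, with SoNar-high in red and SoNar-low in blue, grouped by class. A line joins the same probe on the arrays, and signals of different probes are not comparable. The widest gaps are those of Hist1h3c (9560 in SoNar-high, 2259 in SoNar-low) and of a probe of Hist1h4i (450 in SoNar-high, 134 in SoNar-low).

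H3 carries many of the histone tail marks. Hist1h3c (H3c3) had the highest difference of the 40 measured members, outlier spots left out, with a signal of 9560 in SoNar-high cells, against 2259 in SoNar-low cells, a log2 difference of 1.94 ± 0.20 or 3.83-fold after scaling. It was at least 2-fold higher in all 12 alternatives, from 1.32 to 2.17. Among genes with a mean signal of 1000 to 10000, 1.6% were at least 2-fold higher. Hist1h3d (H3c4), which makes a nearly identical H3 protein, had signals of 27596 in SoNar-high and 20244 in SoNar-low cells, a difference of 0.30 ± 0.20. Hist2h3b (H3c13) had 2207 in SoNar-high and 3664 in SoNar-low cells, a difference of -0.88 ± 0.20. Of the dimmer H3 genes, Hist1h3g (H3c8) was at -0.59 ± 0.22 and Hist1h3i (H3c11) at -0.42 ± 0.28. The 5 measured H3 genes thus ran from -0.88 to 1.94, with a median of -0.42. Hist1h3c rests on 1 probe, so the filter, probe choice and outlier settings could not change its value and left it at 1.94.

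H4, the partner of H3, had a median of -0.20 over 9 genes. Hist1h4h (H4c8) had a signal of 178 in SoNar-high cells, against 60.3 in SoNar-low cells, a difference of 1.41 ± 0.34. It passed 2-fold in 8 of 11 alternatives, was lowest under normexp with quantile normalization, at 0.54, and had no value under the stricter filter. Hist1h4h has 1 probe, so the other filter, probe choice and outlier settings could not change its value. In its signal range, 100 to 1000, 7.89% of genes were at least 2-fold higher. Hist1h4i (H4c9) averaged 0.95 ± 0.21, just under the line. Its probes had differences of 1.60 and 0.29, so only 1 of the 2 passed 2-fold, with signals of 450 in SoNar-high and 134 in SoNar-low cells. The other H4 genes with high levels had small differences. Hist1h4k (H4c12) had a difference of -0.55 ± 0.15 from 2 probes, whose signals were 1952 and 339 in SoNar-high cells, against 2338 and 499 in SoNar-low cells. Hist1h4d (H4c4) had signals of 524 in SoNar-high and 345 in SoNar-low cells, a difference of 0.46 ± 0.21. Hist4h4 (H4f16) had 391 in SoNar-high and 405 in SoNar-low cells, a difference of -0.20 ± 0.21. Hist1h4m (-0.47), Hist1h4c (-0.26), Hist2h4 (-0.22) and Hist1h4j (-0.09) completed the class, all under 2-fold.

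With outlier spots left out, variant genes differed little. H3f3a, which encodes the replacement H3 laid down outside replication, had signals of 56116 in SoNar-high and 53682 in SoNar-low cells and a difference of -0.08 ± 0.20. A further H3f3a probe, left out as an outlier spot, was at 1.44, and H3f3a was at 0.68 with outlier spots kept. H3f3b encodes the same protein as H3f3a. Its 3 probes gave -0.09, 0.00 and 0.73, the last with signals of 692 in SoNar-high and 378 in SoNar-low cells, and its mean was 0.21 ± 0.12. Its brighter probes had signals of 35030 and 23029 in SoNar-high cells, against 31640 and 22154 in SoNar-low cells. The 2 bright probes thus differed by no more than the scanner error, and the dim probe lay apart from them.
H2afz (H2az1), the H2A variant found around transcription starts, had signals of 42449 and 29355 in SoNar-high cells, against 45911 and 24529 in SoNar-low cells, and its probes differed in sign (-0.26 and 0.11). H2afy (Macroh2a1), a macroH2A gene linked to silent chromatin, had probe differences of 0.38, 0.35 and -0.12 with a mean of 0.20 ± 0.13. Its signals were 28266, 7386 and 93.3 in SoNar-high cells, against 20086, 5126 and 91.9 in SoNar-low cells. The brighter probes of H2afy were thus higher in SoNar-high cells and the dim probe was not. H2afx (H2ax), the H2A variant phosphorylated at DNA breaks, had a signal of 5826 in SoNar-high and 7060 in SoNar-low cells, a difference of -0.42 ± 0.20, the lowest of the variants. Of the 6 further variants measured on both arrays, 0 reached 2-fold, and they ran from -0.62 for H2afy3 to 0.98 for the oocyte linker gene H1foo. Cenpa, the centromeric H3, was at -0.04 ± 0.20.

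**Figure D3:**
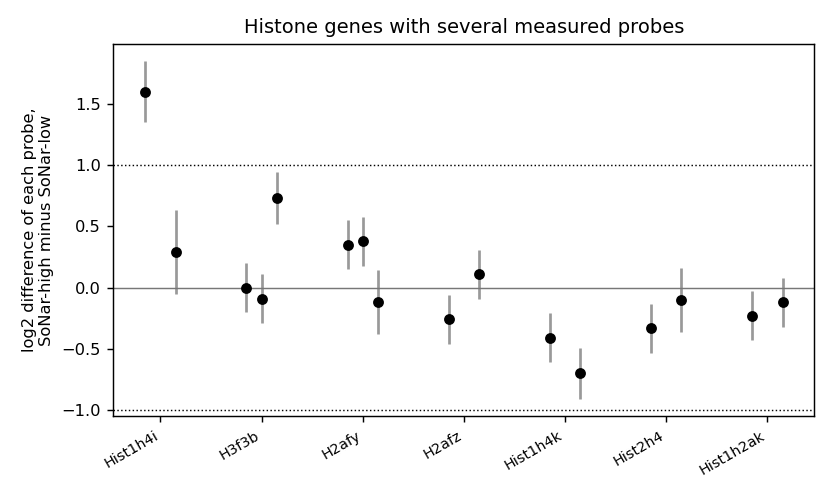
Log2 differences (SoNar-high minus SoNar-low, y axis) of each probe of the 7 histone genes with several measured probes, ordered by the gap between probes. Points are probes, bars are the scanner error, and dotted lines mark a 2-fold difference. Hist1h4i has the widest gap, 1.31, and Hist1h2ak the narrowest, 0.12.

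Probes set a limit to these values. Of the 40 measured members 33 rest on 1 probe and 7 on several, and in those 7 the probes lay a median of 0.37 apart. The gap was 1.31 in Hist1h4i, 0.82 in H3f3b and 0.50 in H2afy, each above the median of 0.43 for genes with 2 probes. Differences below about 0.4 in a gene with a single probe are therefore within the usual gap between probes. Larger differences are not free of this limit, since 14.2% of genes with 2 measured probes had a gap over 1. The members past 2-fold each rest on 1 probe.

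By location, the 26 measured genes of the Hist1 cluster on chromosome 13 had a median of -0.22, with 10 of 26 above 0 and all 3 higher genes among them. The 6 measured Hist2 genes on chromosome 3 had a median of -0.45 and 0 of 6 lay above 0, where 36.8% of all genes did. Relative to the median of all genes, 4 of the 6 Hist2 genes were lower. Over 17 pairs of adjacent members, both measured, the median gap was 0.59 and 12 pairs had the same sign. Of the 35 measured replication-coupled genes 25 lay below 0, and pairs that are not adjacent were not compared. These values are thus no result about neighbours. Hist1h1c at -0.90 and Hist1h3c at 1.94 are adjacent and had the widest gap, 2.83. Hist2h3b and Hist2h2bb are adjacent too and lay 0.12 apart.

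Promoter letters differ by class. RefSeq windows were matched for 67 of the 76 members. In the 250 bases before the start, CCAAT on either strand stood in 82.3% of 62 replication-coupled promoters, against 33.8% of all 32851 windows. TATAA stood in 66.1% of them, against 22.8% of all windows. The octamer stood in 38.9% of 18 H2A and 43.8% of 16 H2B promoters and in 0 of the H1, H3 and H4 promoters, against 1.6% of all windows. GGTCCG stood in 9 of 12 H4 promoters, against 6.72% of all windows. A string that ran past the annotated start was not counted, which bears on Hist1h4h. Among the 33 measured replication-coupled genes with a window, the 9 with the octamer had a median difference of -0.67 (from -1.15 to 0.28) and the 24 without it one of -0.15 (from -1.57 to 1.94). Within H2A and H2B alone the medians were -0.67 for 9 genes with it and -0.12 for 7 without it. This split does not separate octamer from class, since all but 1 of the 7 were H2A genes. The H2A median was -0.15 and the H2B median -0.57. Hist3h2ba, the only H2B gene among the 7, was the lowest measured member, at -1.57. Among H2A genes alone, Hist1h2ab (-0.84), Hist1h2ah (0.28), Hist2h2ac (-0.67) and Hist3h2a (-1.15) held the octamer. The measured H2A genes without it ran from -0.52 to 1.08. Of the 9 octamer genes, the exceptions to a negative difference were Hist1h2ah (0.28) and Hist1h2bb (0.21). This is a description of letters in a small set of genes, and no test was made.

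**Figure D4:**
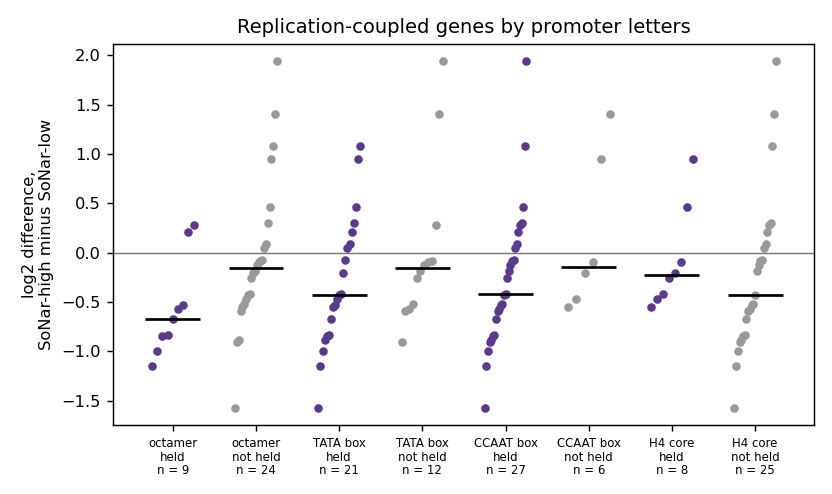
Log2 differences (SoNar-high minus SoNar-low, y axis) of the 33 measured replication-coupled genes with a promoter window, split by whether the 250 bases before the start hold each string of letters (purple, held; grey, not held). Points are genes and black lines are medians. The 9 octamer genes have a median of -0.67, against -0.15 for the 24 others.

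Detection differed between the arrays. Of the 53 members, both arrays detected 40, the SoNar-high array alone 8, the SoNar-low array alone 0 and neither array 4, and the probe of Hist1h3f was left out. The same held for 26.5% of all genes on the SoNar-high side and for 0.0534% on the SoNar-low side. Because detection reached down to a signal of 19.4 with SoNar-high RNA and 46.4 with SoNar-low RNA, detection on a single array gives only a bound. None of the 8 bounds reached 2-fold, where 5.67% of such genes did. The bound was highest for Hist1h2be (H2bc6), at least 1.89-fold higher in SoNar-high cells, with signals of 96.9 in SoNar-high and 42.0 in SoNar-low cells. Hist1h2bp (H2bc22) was at least 1.45-fold and Hist2h2be (H2bc21) at least 1.34-fold higher. The other bounds were under 1, so no fold is given for Hist1h1d, Hist1h1t, Hist1h2ae, Hist1h2bq and Hist1h3a. For Hist1h2bq (H2bc23) the undetected SoNar-low signal of 55.4 exceeded the detected SoNar-high signal of 29.9, so no direction can be given. The members detected on neither array were H1f0, Hist1h2aa, Hist1h2ac and Hist2h2ab.

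Of all genes 4.87% were at least 2-fold higher and 1.68% lower, and the counts for genes that act on histones and their mRNAs are to be read against these shares. Such small counts are no result about the lists. Of 15 measured genes of histone transcription and mRNA 3′ end formation, 0 were at least 2-fold higher and 0 lower, with a median of -0.25. Slbp, which binds the stem-loop of histone mRNA, had mean signals of 3801 in SoNar-high and 3257 in SoNar-low cells, a difference of 0.08 ± 0.14. Casp8ap2 (-0.60) and Lsm10 (-0.67), both needed for the 3′ end of histone mRNA, were on the low side, while Lsm11 was at 0.41. Cpsf2 (-0.70) was the lowest and Sympk (0.50) the highest. Of the 15 genes 4 lay above 0 and 11 below, where 36.8% of all genes lay above 0. Of 26 measured histone chaperone and deposition genes, 1 was at least 2-fold higher and 0 lower, with a median of -0.20. That gene was Npm3, a nucleoplasmin family chaperone, with signals of 806 in SoNar-high and 107 in SoNar-low cells, a difference of 2.77 ± 0.26 from 1 probe. Ubn1, a subunit of the HIRA complex, was the lowest at -0.90 ± 0.20. The assembly factor subunits Chaf1a (-0.34) and Chaf1b (-0.23) and the carrier Nasp (-0.37) stood near the median. Of 17 measured S phase genes, 1 was at least 2-fold higher (Cdc6, 1.41 ± 0.22) and 0 lower, with a median of -0.33, and Mcm4 (-0.62) was the lowest. Markers of other cells differed too. All 8 neutrophil markers lay above the median of all genes, with a median of 0.59, and 2 of 3 measured erythroid and 2 of 3 measured T cell markers were at least 2-fold higher. The erythroid ones were Hba-a1 (1.88) and Ermap (1.67), and the T cell ones Cd3e (1.26) and Cd4 (1.72). The third of each list lay on the other side, Hemgn at -0.83 ± 0.20 and Lck at -0.94 ± 0.20. Erythroid markers were detected for 6 of 7 genes with SoNar-high and 3 of 7 with SoNar-low RNA. T cell markers were detected for 5 of 6 genes with SoNar-high and 3 of 6 with SoNar-low RNA, and Cd3d with neither. Of all genes, 51.0% were detected on both arrays, 26.5% on the SoNar-high array alone and 0.0534% on the SoNar-low array alone. Against these shares, such small detection counts are no result about the markers. The part of other cells in the histone values was not tested.

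**Figure D5:**
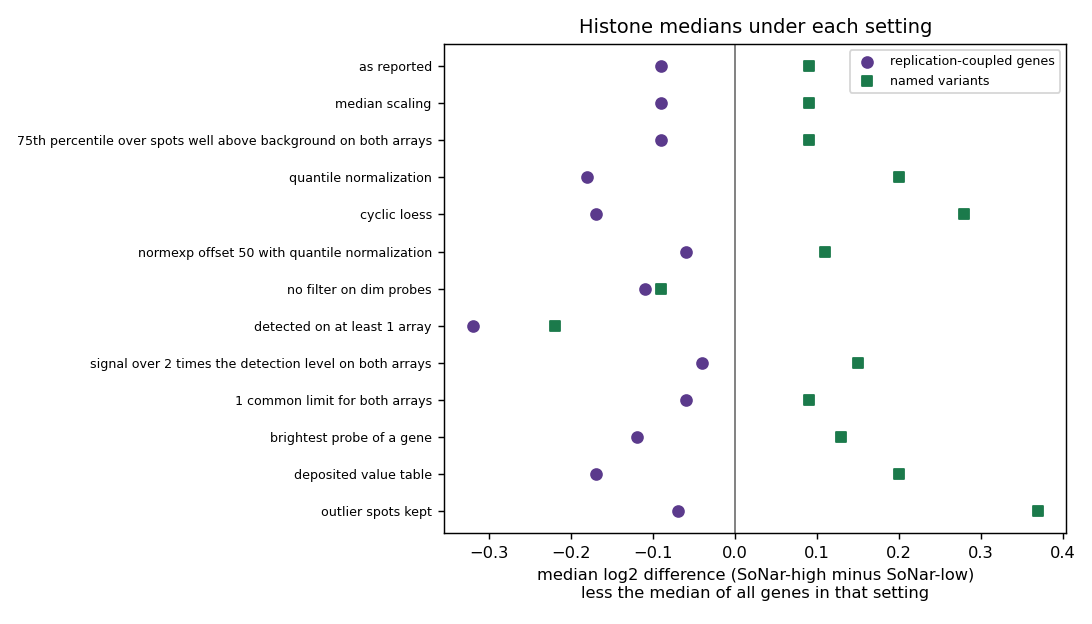
Median log2 difference (SoNar-high minus SoNar-low, x axis) of the replication-coupled genes (circles) and of the named variants (squares), less the median of all genes, under each setting (y axis). The replication-coupled median lies below that of all genes in every setting, from -0.32 to -0.04, while that of the variants ranges from -0.22 to 0.37. Median scaling and the percentile over detected spots shift all genes alike, so they could not change these distances.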

How the data were processed

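Total RNA of B-ALL cells sorted as SoNar-high or as SoNar-low was measured on 1 Agilent 1-colour array per group, and the source names gave the groups. The authors deposited scanner output with a linear intensity per spot, after background subtraction and spatial detrending by Agilent Feature Extraction 11.0.1.1, per the file headers, while version 9.1 stands in the submitters' processing notes. A further deposited table holds log2 values, which the authors normalized in a way that the sources used here do not state. It correlated with log2 of the processed signal with r = 0.995 for SoNar-high and 0.993 for SoNar-low, had a median of 5.90 in both columns, and served only as an alternative.

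Levels were log2 of the processed signal minus the 75th percentile over non-control spots of the array. The 685 spots marked as non-uniform or population outliers on either array were left out. Repeat spots were averaged, and detection needed the software's background flag on most spots of a probe. Of 39429 probes 27234 were named through their RefSeq accession (GRCm38.p6 table, used only for names, order and promoter sequences). Genes were given the mean of those probes that both arrays detected, and an absolute log2 difference of 1 counted as higher or lower. For a probe detected in 1 group, the bound is its level there over the lowest detected level of the other group, or over its own level in that group where this is higher.

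Members and lists were chosen with earlier results of these data known. Signals are given for the named variants, members past 2-fold, members detected on 1 array alone with a bound of 2-fold (0 found), the 3 highest levels of each class and members whose probes differ in sign. Of the further variants and the lists of histone mRNA, chaperone and S phase genes, members past 2-fold and the extremes are named. Cell type markers are given mostly by counts. Genes named beyond this rule, such as Hist1h4i, Hist2h2bb and the members detected on 1 array alone, were chosen after their values were seen. The 12 alternatives changed scaling, background, filter, probe choice, outlier spots or value source, and the computation was tested on simulated data. Python 3.11.15, numpy 2.4.6, pandas 2.3.3, R 4.3.3 and limma 3.58.1 were used.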

Additional observations from a re-analysis of the deposited data

Results flagged for a closer look

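Spots of histone probes that the scanner software marked as outliers were left out of the comparison, and 2 of them held signal well above background on both arrays with a higher level in SoNar-high cells. The only probe of Hist1h3f (current symbol H3c7), a replication-coupled H3 gene, had signals of 2508 in SoNar-high and 241 in SoNar-low cells, a log2 difference of 3.23. A further probe of H3f3a had signals of 34137 in SoNar-high and 11394 in SoNar-low cells, a log2 difference of 1.44, against -0.08 for the H3f3a probe that was used. Both spots were marked as non-uniform on the SoNar-high array. Whether the marking or the spot's cRNA set these values was not tested.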

How the results depend on the processing

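No paired analysis was possible because there was only 1 array for SoNar-high and 1 for SoNar-low cells. No array could be left out. The alternative that takes members from a gene name column was not run, since the scanner files used here hold no such column. Against 3 histone genes at least 2-fold higher, the count was 1 with median scaling and 6 both with no filter and with detection on at least 1 array. Against 2 lower, there were 18 with median scaling, 5 both with quantile normalization and in the authors' value table, 4 with cyclic loess and with no filter, and 1 with the percentile over jointly detected spots, with normexp plus quantile normalization and with 1 common limit. Of all genes, 31.4% were lower with median scaling, 13.5% higher and 8.49% lower with no filter, and 20.0% higher with detection on at least 1 array. The replication-coupled median of -0.26 was -0.87 with median scaling, -0.05 with the percentile over detected spots and -0.10 with no filter. The variant median of -0.07 was -0.69, 0.14, 0.15 and 0.20 with median scaling, the percentile over detected spots, cyclic loess and outlier spots kept. Their distance of -0.19 was -0.37 with quantile normalization, -0.45 with cyclic loess, -0.38 in the authors' table, -0.03 with no filter and -0.44 with outlier spots kept. It kept its sign in all 12, of which median scaling and the percentile over detected spots could not change it. Members detected on 1 array alone numbered 8, and 5 with the common limit. Of 474 values of single genes under the alternatives, 332 moved by less than the gene's scanner error and 142 by more, and 0 of the members past 2-fold changed sign. Filter, probe choice and outlier settings cannot change the value of a gene with 1 probe. Part of the 332 was thus fixed in advance, and the count is no measure of stability. Where scaling shifts, filters or kept spots changed values, they did so by construction, and for the other settings the cause was not tested. Signal over background limits the dim members, which include Hist3h2ba, Hist2h2bb and Hist1h4h.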
